A study of Mus musculus with 3 samples.

Results

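Single nuclei from the prefrontal cortex were measured for 8 genes of the complement cascade and of MHC class I: C1qa, C1qb, C1qc, C4b and C3 of complement, and H2-K1, H2-D1 and B2m of class I. They were chosen by name from the 32285 genes of the deposited table, and all 8 were listed in each of the 3 libraries. Each library came from mice of 6 to 8 weeks and was the only library of its group. The paper describes pooled tissue of male mice for the C57BL/6 and Nav1 KO libraries. The groups were wild-type C57BL/6 mice (5 animals), Nav1 KO mice of the C57BL/6 strain (4 animals), which carry an engineered deletion within the neuron navigator gene Nav1, and mice of the inbred strain BTBR T<+> Itpr3<tf>/J, called BTBR here, whose number is not stated. The methods describe sorting of NeuN-positive and NeuN-negative nuclei together, although the labels call the cells neurons.

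Complement is a cascade of plasma and tissue proteins that tags targets for removal. C1q, built from the chains encoded by C1qa, C1qb and C1qc, starts the classical pathway; C4, encoded by C4b, is cleaved next and C3 after it, and in the developing brain C1q and C3 are known for marking synapses that microglia take up. MHC class I molecules carry peptides to the cell surface. H2-K1 and H2-D1 encode the classical heavy chains, which are highly variable between mouse strains, and B2m encodes the light chain that all of them need.

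In mm10 the C1q genes lie side by side on the minus strand of chromosome 4, with C1qb at chr4:136880129-136886187, C1qc at chr4:136889804-136893065 and C1qa at chr4:136895917-136898803. The H2 complex on chromosome 17 holds H2-K1 at chr17:33996017-34000347 on the minus strand, C4b at chr17:34728380-34743882 on the minus strand and H2-D1 at chr17:35262730-35267499 on the plus strand. C3 lies farther along the same chromosome, at chr17:57203970-57228136 on the minus strand. B2m lies at chr2:122147686-122153083 on the plus strand, inside the span of Patl2 on the opposite strand. The mutant allele that names the BTBR strain is in Itpr3, at chr17:27057304-27122223 on the same chromosome as the H2 complex. C4b has a near-identical neighbour, C4a, and class I heavy chain genes resemble each other, so counts of these genes may be split or lost between copies. All reads were counted on a C57BL/6 reference, and the part of sequence differences of BTBR in its counts was not tested.

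The class I promoters are shown because the 3 class I members are compared across cell classes below. The 250 bases before the RefSeq start on GRCm38.p6 were read in the direction of transcription for 6 of the 8 members that had an entry. Capitals mark matches, on either strand, to the NF-kappaB consensus, to TGACG, to CCAAT and to a repeat of TTTC with any 2 bases between its copies. H2-K1 is chr17:34000348-34000597 on the minus strand, H2-D1 is chr17:35262844-35263093 on the plus strand, and B2m is chr2:122147437-122147686 on the plus strand.
H2-K1: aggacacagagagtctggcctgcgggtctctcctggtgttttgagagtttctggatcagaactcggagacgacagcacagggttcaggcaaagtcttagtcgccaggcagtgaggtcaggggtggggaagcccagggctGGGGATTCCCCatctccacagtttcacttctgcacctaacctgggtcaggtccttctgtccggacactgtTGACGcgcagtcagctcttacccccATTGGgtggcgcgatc
H2-D1: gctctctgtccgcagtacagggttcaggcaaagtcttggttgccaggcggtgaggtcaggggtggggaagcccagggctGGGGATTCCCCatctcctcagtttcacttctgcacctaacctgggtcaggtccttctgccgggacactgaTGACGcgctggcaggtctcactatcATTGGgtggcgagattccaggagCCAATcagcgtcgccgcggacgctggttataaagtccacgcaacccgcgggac
B2m: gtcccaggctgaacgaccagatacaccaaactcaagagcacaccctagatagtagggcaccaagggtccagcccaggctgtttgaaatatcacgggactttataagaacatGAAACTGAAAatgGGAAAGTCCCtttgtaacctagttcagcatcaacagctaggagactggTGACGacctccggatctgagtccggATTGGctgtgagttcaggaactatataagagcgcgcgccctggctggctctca
All 3 windows held the NF-kappaB consensus, which 3.75% of 27025 promoters of this length held, and the 2 overlapping matches in each heavy chain window are drawn as 1 run. All 3 also held TGACG (17.9% of promoters) and CCAAT (34.5%), with a second CCAAT in H2-D1. Of these 3 windows, the spaced repeat (3.04% of promoters) matched in B2m, and no match says only that these letters are not in the window. A local alignment joined 177 bases of the H2-K1 and H2-D1 windows, of which 161 (91.0%) were identical. The matches are descriptions of the reference sequence and no binding was measured.

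Once nuclei below 200 genes and those at 10% mitochondrial counts or above had been removed, 14630 C57BL/6, 14056 Nav1 KO and 14778 BTBR nuclei remained, with 38704723, 50965774 and 48948184 counts and medians of 2074, 2754 and 2510.5 UMIs (unique transcript counts) per nucleus. Clusters gave 39142 of the 43464 nuclei a class by marker lists, and each class name below means nuclei like that class. Pairs of libraries shared 55 to 66 cell barcodes. Nav1 was measured at 345 CPM (counts per 1000000 counts of the nuclei in question) in C57BL/6, 264 CPM in Nav1 KO and 146 CPM in BTBR. The library labelled Nav1 KO thus had less Nav1 than the wild type but more than BTBR, and 3′ counts may lie outside the deleted part. Among genes of excitatory neurons, 21 were 5-fold below and 23 were 5-fold above both other libraries in BTBR, against 0 and 2 in Nav1 KO and 0 and 0 in C57BL/6. By these 5-fold counts in excitatory neurons the BTBR library stood apart. At a smaller fold and over all nuclei it did not. The fold, the minimum for a gene and the set of nuclei all differ between these comparisons, so their parts cannot be told apart. Over all nuclei, among genes with at least 100 counts, 16.9% lay at least 1.5-fold apart between Nav1 KO and C57BL/6. BTBR lay this far from C57BL/6 in 20% of them and from Nav1 KO in 11.8%.

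With 1 library per group no test between groups was possible, and nuclei of a library are not replicates. Levels have exact Poisson intervals, ratios of libraries exact binomial intervals and shares exact Clopper-Pearson intervals, all at 95% and for counting error only. The strain ratio is the CPM in BTBR over the mean CPM of both C57BL/6 libraries, with an interval on the log scale from the counts. A gene was called higher or lower when BTBR passed 1.5-fold against each of the C57BL/6 libraries in the same direction, among genes with at least 100 counts over the 3 libraries. A level over all nuclei cannot tell fewer cells of a type from less RNA per cell.

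C1qa, the first chain of C1q, was the only member called over all nuclei, 1 of 7 tested and higher in BTBR, where 6.28% of 16251 genes were called in either direction, 3.05% higher and 3.23% lower. C1qa had 340 counts in C57BL/6, 573 in Nav1 KO and 977 in BTBR, or 8.78, 11.2 and 19.96 CPM. The strain ratio was 1.99 (interval 1.82 to 2.18), above that of 98.4% of tested genes. C1qb, the second chain, was measured at 7.05, 9.83 and 9.38 CPM in the same order, with a strain ratio of 1.11 (0.989 to 1.25). C1qc, the third chain, was at 6.74, 9.01 and 8.93 CPM, with a strain ratio of 1.13 (1.01 to 1.28). In both genes BTBR lay above C57BL/6 and within the counting error of Nav1 KO, at 0.954 (0.839 to 1.08) and 0.991 (0.868 to 1.13) of its level. The members' median strain ratio was 1.11 beside 1.04 over all tested genes.

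More microglial RNA was counted in BTBR as well. Cx3cr1, a chemokine receptor of microglia, had a strain ratio of 1.73 (1.49 to 2.01) over all nuclei, Csf1r, the receptor on which microglia depend, 1.76 (1.56 to 1.98), and P2ry12, a purine receptor of resting microglia, 1.75 (1.53 to 1.99). These are close to the C1qa ratio and above those of C1qb and C1qc, and the part of microglial content in the C1q levels was not tested. The microglia themselves numbered 51, 83 and 91 nuclei in C57BL/6, Nav1 KO and BTBR. Further clusters led by the microglia list were left unnamed for their doublet scores. A cluster with a median of 9012 UMIs held 39, 109 and 200 nuclei, and another held 88, 63 and 94. Their part in the levels over all nuclei was not tested.

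The C1q genes were highest in the microglia, a class named without them and clustered without them. There C1qa was at 1003 CPM (760 to 1300) in C57BL/6, 1299 (1092 to 1534) in Nav1 KO and 1763 (1535 to 2015) in BTBR. C1qb was at 1021 CPM (775 to 1319), 1178 (981 to 1402) and 869 (712 to 1051). C1qc was at 827 CPM (608 to 1100), 1356 (1144 to 1595) and 787 (638 to 961). BTBR was thus the highest library for C1qa and the lowest for C1qb and C1qc, although its C1qb and C1qc intervals overlapped those of C57BL/6. C1qa in BTBR was 1.76 times C57BL/6 (1.31 to 2.40) and 1.36 times Nav1 KO (1.09 to 1.69), short of a call against the latter. No member of the 3 tested was called in microglia, where 6.52% of 230 genes were.

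These microglial ratios depended on the clusters. The C1qa strain ratio of 1.53 (1.26 to 1.87) became 0.976 with the coarser clusters of the study's settings, 10 principal components and a resolution of 0.3. Microglial markers of the same nuclei did not move together either: Cx3cr1 was at 774, 608 and 615 CPM, and P2ry12 at 528, 589 and 812 CPM. The 12 microglia markers summed to 6933, 8273 and 8165 CPM in these nuclei. The 9 astrocyte markers summed to 669, 626 and 2689 CPM with Aldh1l1 at 0 in every library, and their part in the result was not tested.

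The balance within C1q differed between the libraries as well. A share of counts compares libraries here, not the 3 genes with each other. C1qa made up 38.9% (35.7 to 42.2) of all C1q counts in C57BL/6, 37.4% (35.0 to 39.9) in Nav1 KO and 52.2% (49.9 to 54.5) in BTBR. In microglia the C1qa share was 35.2% (27.9 to 43.1), 33.9% (29.3 to 38.7) and 51.6% (46.7 to 56.5). The intervals of both C57BL/6 libraries overlapped each other and lay below that of BTBR in both sets. In excitatory neurons it was 38.6% (31.8 to 45.8), 39.3% (32.5 to 46.4) and 63.5% (56.98 to 69.7). Over all nuclei C1qb took 31.2%, 32.7% and 24.5% and C1qc 29.9%, 29.9% and 23.3%, so the shares of both other chains were lower in BTBR.

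**Figure D1:**
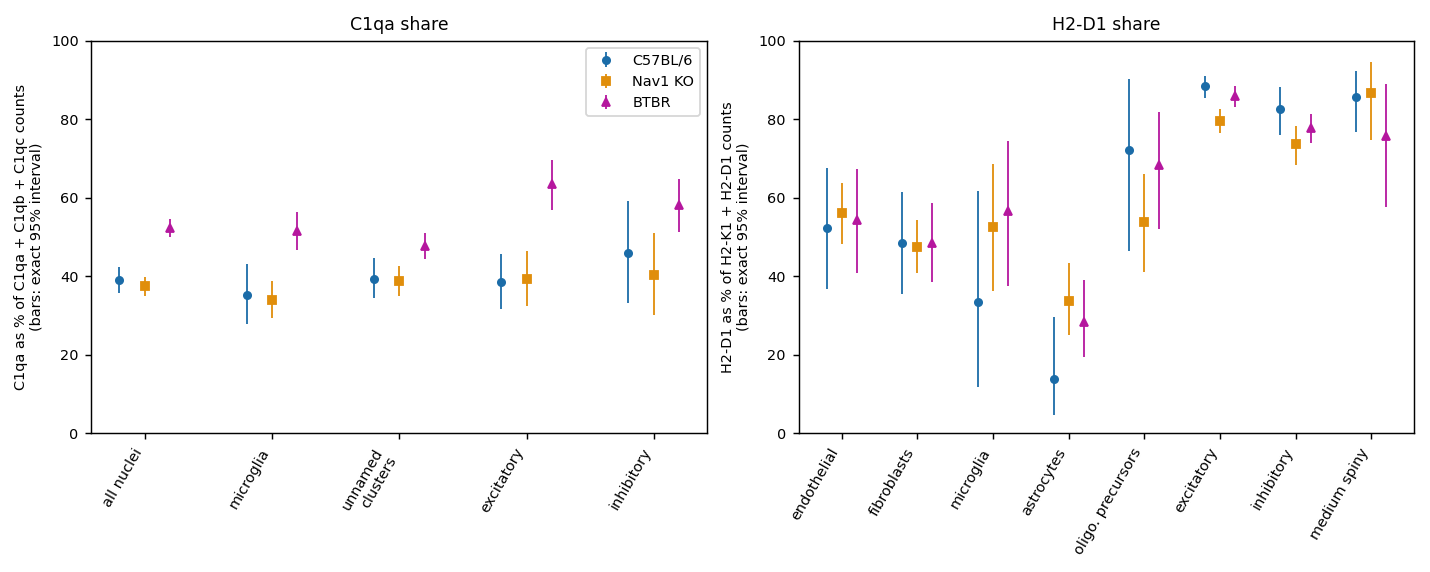
Shares of counts within C1q and within the class I genes, by cell class (x axis) and library (colour), in percent of the counts of the genes named in each panel, with exact 95% intervals. The C1qa share over all nuclei was 52.2% in BTBR against 38.9% and 37.4% in the C57BL/6 libraries, and the H2-D1 share was higher in neurons than in endothelial cells or fibroblasts.

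Perivascular macrophages, a related class of 7, 13 and 7 nuclei, had 3, 20 and 10 counts of C1qa, which is too few to compare libraries. Elsewhere the C1q genes were low. In excitatory neurons C1qa was at 3.25 CPM (2.56 to 4.07) in C57BL/6, 3.01 (2.38 to 3.75) in Nav1 KO and 6.32 (5.34 to 7.42) in BTBR, and in inhibitory neurons at 5.65, 4.18 and 9.92 CPM. C1qa was called higher in BTBR in both classes, as 1 of 6 members tested in excitatory neurons (6.74% of 14129 genes were called and 3.43% higher) and 1 of 4 in inhibitory neurons (4.38% of 12389 genes called and 2.32% higher). BTBR was above both other libraries in 11 of 13 neuronal clusters that had at least 20 nuclei in every library, a minimum chosen after the values were seen. With each nucleus thinned to 500 UMIs, 0.172%, 0.237% and 0.297% of excitatory neurons had a UMI of C1qa, against 49.0%, 57.8% and 63.7% of microglia. Without thinning these were 0.797%, 1.06% and 1.84% of excitatory neurons, at a median of 2132, 3063 and 2667 UMIs, and 60.8%, 75.9% and 81.3% of microglia, at 727, 914 and 802 UMIs. In endothelial cells, which should lack the gene, 0 of 31, 85 and 52 nuclei had one after thinning, with upper limits of 11.2%, 4.25% and 6.85%, and without thinning 3.23%, 0% and 3.85% at medians of 1456, 1836 and 1362 UMIs. The thinned neuronal shares lay below these limits, which rest on too few nuclei to be a background for shares this low. In astrocytes the thinned shares were 0.575%, 0.639% and 0%. Without thinning they were 1.44%, 1.28% and 1.45%, at medians of 1093, 1528 and 1490 UMIs. Of microglia with at least 1000 UMIs, thinned to that number, 40%, 77.1% and 53.1% of 15, 35 and 32 nuclei had a UMI of C1qa. The order of libraries thus changed with the depth and nuclei used, and none is read from the microglial shares. No expression in neurons and no difference between libraries is read from the neuronal shares. In BTBR the C1qa share of C1q counts was higher in excitatory neurons than in microglia, with intervals that did not overlap. In both C57BL/6 libraries they overlapped. Without thinning, 143, 43 and 41 of 7754 BTBR excitatory neurons had a UMI of C1qa, C1qb and C1qc. In BTBR inhibitory neurons these were 107, 44 and 41 of 2994 nuclei, with C1qa less far above the other chains. The part of free RNA in the neuronal counts was not tested. In the 1153, 1645 and 1524 nuclei left unnamed C1qa was also the 1 member called of 7, at 34.7, 34.0 and 59.4 CPM. There 4.5% of genes were called either way and 2.42% higher. These nuclei include the microglia-led clusters given above, whose part in this call was not tested.

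**Figure D2:**
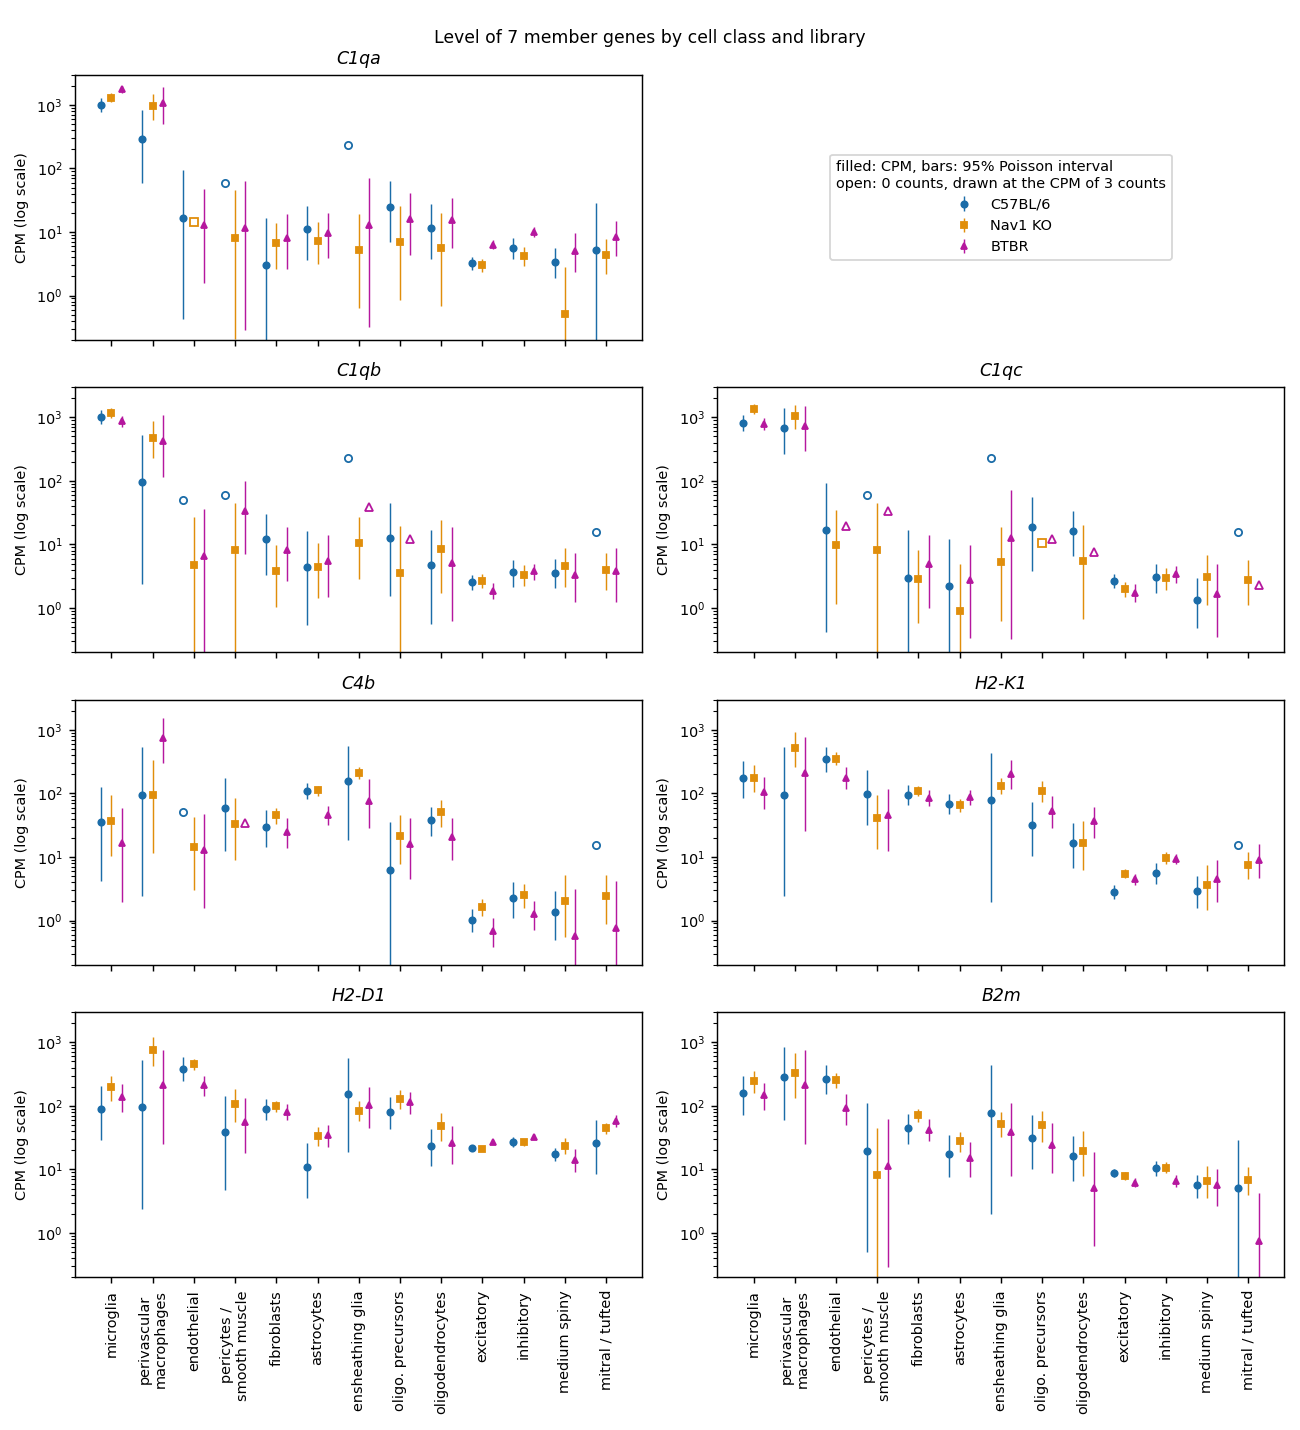
Level of the 7 members with more than 3 counts in a library, in CPM on a log axis, by cell class (x axis) and library (colour and shape), with 95% Poisson bars and open symbols at the CPM of 3 counts where a class had 0 counts. The C1q genes were highest in microglia and perivascular macrophages, C4b was high in astrocytes and ensheathing glia, and the class I genes were high in endothelial cells and lower in neurons.

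C4b, whose product is cleaved by the complex of C1q and its proteases, had 197, 592 and 198 counts over all nuclei in C57BL/6, Nav1 KO and BTBR, or 5.09, 11.6 and 4.05 CPM. The Nav1 KO library was the high one, at 2.28 times C57BL/6 (1.94 to 2.69). The strain ratio was 0.484 (0.414 to 0.566), but BTBR was 0.348 times Nav1 KO and 0.795 times C57BL/6 (0.649 to 0.973), so no call was made. The libraries also differed in glia: ensheathing glia of the olfactory nerve layer, in which C4b reached 155, 210 and 76.8 CPM, numbered 14, 244 and 56 nuclei and held 80 of the 592 Nav1 KO counts.

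Within astrocytes, which number 348, 626 and 415 nuclei, the C4b levels of both C57BL/6 libraries over the whole class differed by less than counting error and BTBR was lower. C4b was at 109 CPM (80.7 to 144) in C57BL/6, 111 (92.6 to 133) in Nav1 KO and 45.6 (31.4 to 64.0) in BTBR, from 49, 124 and 33 counts. The strain ratio was 0.413 (0.283 to 0.604), below that of all but 0.635% of genes tested in astrocytes. C4b was called lower, as 1 of 2 members tested, where 5.41% of 3621 genes were called and 3.09% lower. The share of astrocytes with a UMI of C4b, thinned to 500 UMIs, was 5.17% (3.09 to 8.05), 8.15% (6.13 to 10.6) and 1.93% (0.836 to 3.76), and without thinning 12.4%, 15.5% and 6.51% at medians of 1093, 1528 and 1490 UMIs. In excitatory neurons the thinned share was 0.0969%, 0.140% and 0.0645%, below that of astrocytes in every library.

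BTBR was the lowest library in 3 of the 4 astrocyte clusters, over which the nuclei were spread differently in each library. In those 3 C4b was at 355, 128 and 43.8 CPM (23, 178 and 70 nuclei), at 251, 197 and 82.9 CPM (88, 172 and 67 nuclei), and at 86.2, 45.4 and 34.6 CPM (69, 128 and 168 nuclei) in C57BL/6, Nav1 KO and BTBR. In the remaining cluster it was at 25.6, 77.8 and 55.0 CPM (168, 148 and 110 nuclei), with BTBR in the middle. Within clusters the C4b levels of the C57BL/6 libraries thus also lay apart from each other in value, and the part of the spread over clusters in the class level was not tested. The 9 astrocyte markers summed to 8475, 7227 and 7746 CPM over the class. In oligodendrocytes C4b was at 37.5, 50.3 and 20.7 CPM and in fibroblasts of the meninges at 30.0, 45.2 and 24.5 CPM, from 8 to 48 counts each, and BTBR was again the lowest without a call. Its neighbour C4a, which encodes a related protein, was at 4.70, 3.94 and 3.15 CPM over all nuclei, a strain ratio of 0.728 (0.603 to 0.878), and reads of C4b and C4a cannot be told apart where they are identical.

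C3, the central component of the cascade, had 2, 2 and 1 counts over all nuclei. These are below 3 counts in each library, so no level, ratio or class could be given.

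**Figure D3:**
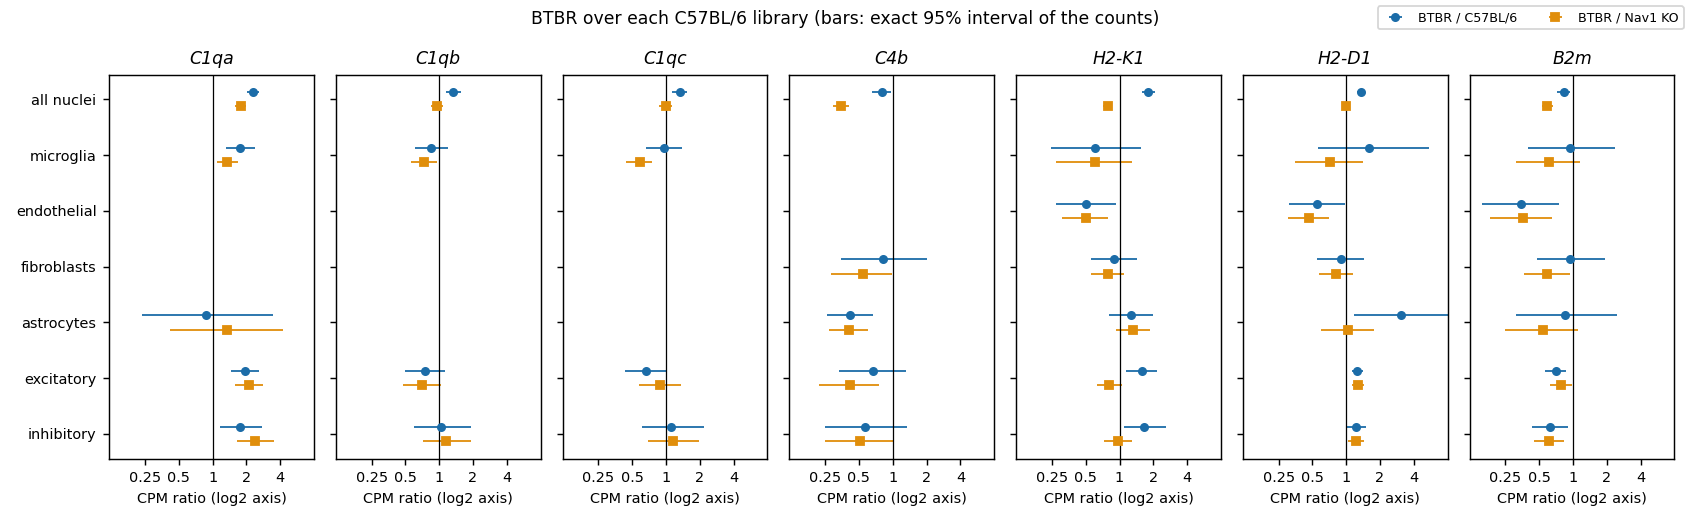
CPM of BTBR over that of C57BL/6 (circles) and of Nav1 KO (squares) on a log2 axis, for each member over all nuclei and in 6 classes, with exact 95% intervals and points only where the 3 libraries held at least 20 counts together. C1qa lay above 1 against both libraries over all nuclei, in microglia and in excitatory and inhibitory neurons. C4b lay below 1 in astrocytes, and H2-D1 lay below 1 in endothelial cells and above 1 in excitatory and inhibitory neurons. Medium spiny neurons, where H2-D1 was lowest in BTBR, are not drawn.

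H2-K1, a classical class I heavy chain, had 303, 922 and 693 counts over all nuclei, or 7.83, 18.1 and 14.2 CPM in C57BL/6, Nav1 KO and BTBR. BTBR lay between the C57BL/6 libraries, at 1.81 times the one and 0.783 times the other, and the strain ratio was 1.09 (0.995 to 1.20). H2-D1, the other classical heavy chain, was at 24.2, 32.7 and 32.6 CPM, and BTBR was at 0.998 (0.931 to 1.07) of Nav1 KO. B2m, the light chain, was at 10.5, 14.6 and 8.66 CPM, lowest in BTBR, with a strain ratio of 0.690 (0.617 to 0.772). The Nav1 KO library held more of all 3 than C57BL/6, 2.31 times for H2-K1 (2.03 to 2.64), 1.35 times for H2-D1 (1.25 to 1.46) and 1.39 times for B2m (1.23 to 1.58). It also held 2.42 times as much Aqp4, the water channel of astrocytes, and 85 endothelial nuclei against 31, and the part of cell makeup in these differences was not tested. In 16.9% of genes tested the Nav1 KO and C57BL/6 libraries lay at least 1.5-fold apart, although they share a strain.

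The class I genes were high in endothelial cells, the lining of blood vessels (31, 85 and 52 nuclei), and there all 3 were lowest in BTBR. H2-K1 was at 352 CPM (218 to 538) in C57BL/6, 352 (276 to 443) in Nav1 KO and 177 (117 to 257) in BTBR, from 21, 73 and 27 counts. H2-D1 was at 386 CPM (244 to 579), 449 (362 to 549) and 210 (143 to 296), from 23, 93 and 32 counts. B2m was at 268 CPM (153 to 436), 256 (192 to 334) and 91.7 (50.1 to 154), from 16, 53 and 14 counts, under the minimum of 100 in all. The strain ratios were 0.502 (0.321 to 0.787), 0.503 (0.334 to 0.757) and 0.350 (0.193 to 0.635). Both members tested, H2-K1 and H2-D1, were called lower, where 5.24% of 382 genes were called lower and 11.8% either way.

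Other values moved with this result. The 10 endothelial markers summed to 5934, 5227 and 5515 CPM in these nuclei. In the cluster that made up this class the endothelial list led at a median fold of 27.96 over other clusters. The list of pericytes or smooth muscle cells came second, at 12.93, so such RNA was also present. The 9 astrocyte markers summed to 1978, 1456 and 812 CPM and the 11 fibroblast markers to 704, 617 and 177 CPM, in both cases lowest in BTBR, with no marker of either list at 0. The 6 markers of excitatory neurons summed to 386, 415 and 635 CPM, highest in BTBR. Their part in the result was not tested. The share of endothelial nuclei with a UMI of H2-K1, thinned to 500 UMIs, was 9.68% (2.04 to 25.8), 15.3% (8.40 to 24.7) and 17.3% (8.23 to 30.3), which goes against the order of the CPM. For H2-D1 it was 12.9% (3.63 to 29.8), 31.8% (22.1 to 42.8) and 13.5% (5.59 to 25.8), with BTBR not below C57BL/6 either. For B2m it was 22.6%, 11.8% and 11.5%. Without thinning BTBR was the lowest library for each gene, at medians of 1456, 1836 and 1362 UMIs. The shares were then 41.9%, 49.4% and 34.6% for H2-K1, 35.5%, 47.1% and 34.6% for H2-D1, and 32.3%, 37.7% and 19.2% for B2m. Their intervals overlapped. The order changed with depth, so no order of libraries is read from these shares.

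In excitatory and inhibitory neurons the heavy chain H2-D1 was counted slightly more in BTBR. In excitatory neurons it was at 21.6 CPM (19.7 to 23.5) in C57BL/6, 21.3 (19.6 to 23.1) in Nav1 KO and 27.1 (25.0 to 29.3) in BTBR, from 504, 559 and 635 counts. The strain ratio was 1.26 (1.15 to 1.40), and BTBR was the highest library in 6 of 7 excitatory clusters. In inhibitory neurons H2-D1 was at 27.1, 26.8 and 32.8 CPM, a strain ratio of 1.22 (1.06 to 1.41). In mitral or tufted cells of the olfactory bulb it was at 25.8, 44.2 and 58.1 CPM. There 4 of 45, 101 of 543 and 69 of 362 nuclei had a UMI of H2-D1 without thinning, so the C57BL/6 value rests on few nuclei. In medium spiny neurons of the striatum it was at 17.5, 23.6 and 14.0 CPM, lowest in BTBR. None of these reached 1.5-fold against both libraries, which 6.06% of genes did in medium spiny neurons and 4.63% in mitral or tufted cells.

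B2m went the other way in the excitatory and inhibitory classes as a whole. In excitatory neurons B2m was at 8.89 CPM (7.73 to 10.2), 7.97 (6.92 to 9.12) and 6.23 (5.26 to 7.32), a strain ratio of 0.739 (0.612 to 0.892). By cluster the direction was mixed: BTBR was the lowest library in 5 of 7 excitatory clusters and the highest in the other 2. In inhibitory neurons it was at 10.5, 10.7 and 6.53 CPM, a strain ratio of 0.615 (0.468 to 0.809), and was called lower as 1 of 4 members tested, where 2.06% of genes were. B2m made up 26.7%, 22.9% and 16.5% of the counts of B2m, H2-K1 and H2-D1 in excitatory neurons and 24.3%, 22.8% and 13.4% in inhibitory neurons, lowest in BTBR in both. In mitral or tufted cells B2m had 1, 17 and 1 counts, in 45, 543 and 362 nuclei.

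H2-K1 in neurons separated the C57BL/6 libraries from each other more than the strains. In excitatory neurons it was at 2.82, 5.45 and 4.44 CPM, with Nav1 KO at 1.93 times C57BL/6 (1.43 to 2.63) and BTBR between them. In inhibitory neurons it was at 5.66, 9.60 and 9.36 CPM, and BTBR was at 0.976 of Nav1 KO (0.733 to 1.31). The inhibitory class, of 1498, 2077 and 2994 nuclei, was spread differently over its clusters in each library. A cluster led by Adamts19, Vipr2 and Pbx3 held 310, 1134 and 1555 of these nuclei. Another, led by Trh and Th, held 25, 232 and 164. The part of this spread in the inhibitory levels and calls of every member was not tested. The excitatory class, of 9287, 7161 and 7754 nuclei, was spread unevenly as well. A cluster led by mitochondrial genes held 2955, 1134 and 1419 of these nuclei. Another, led by Ndst4 and Abi3bp, held 523, 344 and 1354. The part of that spread in the excitatory levels and calls of every member was not tested either.

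The makeup of the classical heavy chains differed between classes in every library. H2-D1 took 88.4% (85.5 to 90.9), 79.6% (76.5 to 82.5) and 85.9% (83.2 to 88.3) of the counts of both heavy chains in excitatory neurons. In endothelial cells its share was 52.3%, 56.0% and 54.2%, and in fibroblasts 48.4%, 47.5% and 48.5%. In astrocytes H2-D1 took 13.9% (4.67 to 29.5), 33.6% (24.9 to 43.3) and 28.4% (19.3 to 39.0). By point value excitatory neurons lay above all 9 non-neuronal classes and astrocytes below all other classes in each library, and the intervals of both did not overlap each other in any library. Some of these shares rest on few counts, from 2 to 27 for both heavy chains in perivascular macrophages and from 7 to 18 in pericytes or smooth muscle cells.

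The class I members in other glia and stroma did not differ by a call. In astrocytes H2-K1 was at 69.0, 65.5 and 87.0 CPM and B2m at 17.8, 27.8 and 15.2 CPM. In fibroblasts H2-K1 was at 95.8, 108 and 84.8 CPM, H2-D1 at 89.9, 98.0 and 79.9 CPM and B2m at 44.9, 71.6 and 42.4 CPM, with intervals that overlapped between C57BL/6 and BTBR. Of the 3 members tested in fibroblasts 0 were called, where 5.35% of genes were. In microglia H2-K1 was at 176, 178 and 107 CPM, H2-D1 at 88.0, 196 and 139 CPM and B2m at 158, 243 and 148 CPM, from 5 to 26 counts each.

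**Figure D4:**
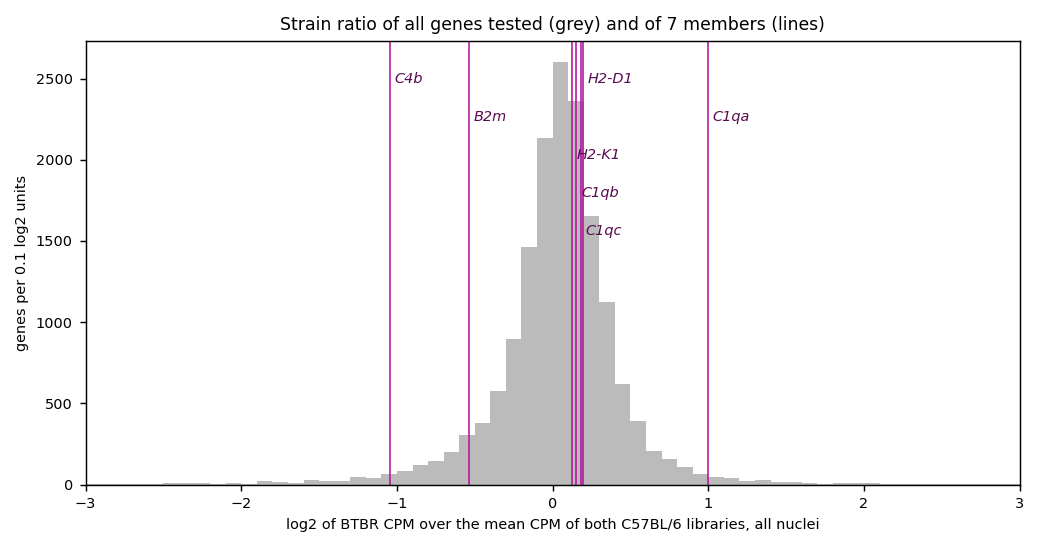
Number of genes (y axis) by the log2 of the strain ratio over all nuclei (x axis) for the 16251 genes with at least 100 counts, with the 7 members tested marked. C1qa, with a ratio of 1.99, lies in the upper tail and C4b, with 0.484, in the lower, while H2-K1, C1qb, C1qc and H2-D1 have ratios of 1.09 to 1.15.

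The other genes of both pathways were counted over all nuclei from lists that were chosen with earlier results of these data known. The calls from lists in this and the next paragraph are therefore descriptions and cannot be weighed against the share over all genes. Of 8 tested genes of complement activation 0 were called, with a median strain ratio of 0.803, and the proteases that bind C1q, C1ra and C1s1, stood at 0.715 (0.554 to 0.921) and 0.732 (0.597 to 0.898). Of 14 complement regulators and 3 receptors 0 were called. Within classes the complement receptor Cr2 was past 2-fold lower in BTBR astrocytes, at 75.7, 44.9 and 22.1 CPM from 34, 50 and 16 counts, where 3.09% of genes were called lower, and it was also called lower in the unnamed nuclei. Named after their values were seen, C1ra was called lower in excitatory neurons, at 2.69, 2.71 and 1.79 CPM, and in endothelial cells the regulator Csmd1 was called higher and Clu lower. Of 9 other class I heavy chain genes 1 was called higher and 3 lower, where 3.05% of all genes tested were higher and 3.23% lower. The one past 2-fold was H2-T24, at 25.6, 16.5 and 2.57 CPM, a strain ratio of 0.122 (0.102 to 0.146). The others, named after their values were seen, were H2-T22 at 18.8, 17.3 and 10.6 CPM, H2-T23 at 15.6, 23.6 and 8.15 CPM, and H2-M5, the higher one, at 1.94, 1.98 and 3.53 CPM. H2-T24, H2-T23 and H2-T22 lie together at chr17:36005695-36020560, chr17:36029773-36032855 and chr17:36037128-36042747.

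Genes that load peptide on class I were not called in any direction over all nuclei, 0 of 12, with a median strain ratio of 1.25. Among them Tapbp, encoding tapasin, which holds the heavy chain with B2m at the peptide transporter, was at 10.1, 13.3 and 17.3 CPM and was called higher in excitatory and in inhibitory neurons. Of 13 regulators of class I and related receptors 0 were called over all nuclei. Of 12 interferon-stimulated genes 3 were called lower and 0 higher, beside 3.23% and 3.05% of all genes, with a median strain ratio of 0.589: Isg15, a ubiquitin-like modifier, at 3.62, 4.43 and 2.04 CPM, Irf7, an interferon regulatory factor, at 1.09, 1.16 and 0.715 CPM, and Iigp1, an interferon-induced GTPase, at 1.16, 2.24 and 0.736 CPM. Tapbp and these 3 genes were named after their values were seen. Of 7 class II genes 0 were called. Of 11 reactive astrocyte genes 1 was called higher (3.05% of all genes were), Serpina3n, a protease inhibitor, at 1.499, 2.14 and 13.6 CPM over all nuclei. It was called in excitatory neurons, at 1.28, 1.33 and 13.7 CPM, in inhibitory neurons and in the unnamed nuclei, while in astrocytes it had 2, 1 and 17 counts, too few to test. Of 7 genes of microglial activation 1 was called, Lpl, a lipase, at 12.4, 12.9 and 31.9 CPM over all nuclei. Lpl was called in excitatory neurons, at 9.58, 13.4 and 34.6 CPM, in inhibitory and medium spiny neurons and in the unnamed nuclei, and had 1, 0 and 2 counts in microglia. Both genes thus had too few counts for a call in the cell type that names their list. The lack of a call there says nothing of their levels in it.

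Patterns over cell classes were compared by Pearson's r of log2(CPM + 5) over 33 points, 11 classes in each of 3 libraries, which share libraries and depth, so r is a description. The genes most like C1qa were Selplg (0.973), Cd33 (0.962) and Arhgap45 (0.962), those most like C1qb Dock8 (0.979) and Siglech (0.970), and those most like C1qc Itgam (0.962) and Dennd1c (0.960). For C4b they were Pdlim4 (0.923) and 4930581F22Rik (0.873). For H2-K1 they were Zfp36l1 (0.905) and Ftl1 (0.889), for H2-D1 H3f3b (0.868) and Rpl36 (0.862), and for B2m Il10rb (0.908) and Bst2 (0.904). Among members, the C1q chains were alike at 0.929 to 0.935, B2m followed H2-K1 at 0.861 and H2-D1 at 0.823, and C4b was alike to no C1q chain above 0.236.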

How the data were processed

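Single-nucleus libraries (10x Genomics 3′ v3.1) of 3 groups were used, 1 library each. The authors deposited filtered matrices of counts (UMIs per gene and nucleus), made per the labels with Cell Ranger 6.0.0 and mm10; the values are whole numbers. Strand and intron settings are not given in the sources used here. The BTBR library is not part of the paper.

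Nuclei needed 200 genes or more and a mitochondrial share below 10%. Counts were scaled to 10000 per nucleus and logged, and 2000 variable genes without the members and immune lists gave 30 principal components and Leiden clusters at a resolution of 1 (scanpy 1.11.5, python-igraph 0.11.9). Clusters led by a non-neuronal list were clustered again at a resolution of 3. A cluster was named where the median fold of its leading marker list over other clusters was at least 3 and 2 times that of any rival list. Other clusters with no non-neuronal list at 2-fold were called excitatory or inhibitory where one of these lists was 1.5 times the other. These values and the second round were set after the data were seen. Clusters under 20 nuclei, or with at least 20% of nuclei among the top 10% of doublet scores, stayed unnamed. A doublet caller marked 1, 1 and 0 nuclei and so had not worked; doublets were not removed, and an alternative left out the top 10% of doublet scores. Counts were summed per class and library as CPM, with intervals at 95% (scipy 1.17.1) tested on simulated data. The simulated counts held counting error alone, so this test does not cover spread between mice or libraries. With 500 UMIs per nucleus in thinning, 0 nuclei were left out.

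The 8 members and the lists were chosen with earlier results of these data known. Members were named everywhere; other genes were named past 2-fold against both C57BL/6 libraries, or where a member's reading needed them. Sequences are from RefSeq and positions from GENCODE.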

Additional observations from a re-analysis of the deposited data

Results flagged for a closer look

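H2-D1 stood out because its strain ratio lay on opposite sides of 1 in different cell classes. It was 1.26 in excitatory neurons, where BTBR was above both C57BL/6 libraries, and 0.503 in endothelial cells, where BTBR was below both. Not all neurons went with the excitatory class: in medium spiny neurons it was 0.683, and BTBR was again below both. The difference between the classes was not tested, since each group has 1 library.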

How the results depend on the processing

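No paired analysis was possible because each group has 1 library. Of 325 alternative values for 73 results, 239 stayed within counting error, 86 moved and 0 reversed a call. Only a strain ratio that had been called higher or lower could reverse, so the 0 says nothing of the other results. A call lost by falling short of the fold was not counted as a reversal. The C1qa ratio in microglia had no call, and its fall from above 1 to below 1 with coarser clusters was counted as moved. All 46 values under median-ratio scaling, which shifted the median log2 strain ratio of all genes by more than 0.1 in endothelial cells alone (from 0.114 to -0.004), stayed. The C1qa share of C1q counts stayed in every alternative run.

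Against C57BL/6 alone and Nav1 KO alone, the ratios over all nuclei were 2.27 and 1.78 for C1qa, 1.33 and 0.954 for C1qb, 1.32 and 0.991 for C1qc, 0.795 and 0.348 for C4b, 1.81 and 0.783 for H2-K1, 1.35 and 0.998 for H2-D1, and 0.826 and 0.593 for B2m. H2-K1 in excitatory neurons gave 1.57 and 0.814, and C1qc in microglia against C57BL/6 alone 0.952. With 10 principal components and a resolution of 0.3, the microglial ratios were 0.976 for C1qa and 0.607 for C1qb. With the first clustering round alone, added after the data were seen, they were 0.947 and 0.577. Neither of these settings gave an astrocyte or endothelial class, so the astrocyte and endothelial results were not checked under them. With each library clustered on its own the microglial ratios were 1.04 for C1qb and 1.06 for C1qc, and no endothelial class was found in C57BL/6. The cause was not tested. The 1021 genes called over all nuclei became 1868 with at least 20 counts, 5414 with no minimum and 444 at a fold of 2.

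Endothelial and microglial values rest on 31 to 91 nuclei per library, and no replicate shows how far libraries of 1 strain vary beyond the C57BL/6 and Nav1 KO pair.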
